A study of Homo sapiens with 12 samples.

Results

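The 48 genes described here encode the proteins that copy DNA in S phase, and they were chosen by name and role, not by any value measured in these cells. They fall into 5 classes: 16 genes for origin licensing and the replicative helicase, 18 for polymerases, the sliding clamp and other proteins of the replication fork, 6 for nucleotide supply, 4 for E2F factors and E-type cyclins, and 4 for chromatin assembly and histone supply. The arrays measured 19775 genes through at least 1 probe set (a group of short probes against 1 transcript) that is assigned to a single gene symbol, and the 48 are among them. All 48 were also among the 13959 genes with enough signal to be tested. For each gene the probe set with the highest mean signal was used.

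RNA was measured in U937 cells, a human monocytic line derived from a histiocytic lymphoma, on 12 Affymetrix arrays. The cells were electroporated with a plasmid for GFP-tagged PR2VR, for GFP-tagged PRWT or for GFP alone, and GFP-positive cells were sorted 9 h or 6 h later. Each construct and hour has 2 arrays, which gives 4 arrays per construct and 6 per hour. PRWT is wild-type PML-RARA, the fusion protein of acute promyelocytic leukemia, made of parts of PML and of the retinoic acid receptor RARA. PR2VR was read as the protease-resistant PML-RARA of the series title, although its own label calls the cDNA wild type as well. PR2VR, PRWT and GFP cells share the same parent line, the electroporation and the GFP sort, and expression was followed only over these first hours. No source used here names the promoter that drives the constructs. Titles of the fusion samples count hours from infection and those of the GFP samples from transfection. Both were taken as the electroporation, and a difference in procedure cannot be told apart from the fusion itself. The labels do not state whether both arrays of a group stem from different transfections. The p-values therefore cover the spread among these arrays alone, and that spread may be technical.

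Replication origins are licensed in G1, when ORC, CDC6 and CDT1 load the MCM2 to MCM7 helicase onto DNA. In S phase MCM10, CDC45 and GINS turn that complex into an active helicase, primase and polymerases alpha, delta and epsilon copy both strands, and the PCNA clamp, its RFC loader, FEN1 and LIG1 process and join the fragments of the lagging strand. Many of these genes are transcribed at the passage from G1 to S by E2F factors. RB proteins hold these factors in check until cyclins and their kinases, cyclin E among them, are active. Fast-growing lines such as U937 keep these genes highly expressed.

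Because E2F is the factor best known to control these genes, the 250 bases before each start site were searched for E2F words, and 1 promoter of each class is shown. It was picked among the promoters of the class that hold an E2F word, as that of the gene with the smallest unadjusted p between the hours in limma. The promoters shown therefore all hold such a word by selection and are not typical of their classes. The sequences and start sites are those of RefSeq on GRCh38.p14. The set of promoters searched held such a window for 41 of the 48 genes and lacked MCM4, MCM5, GINS4, POLD3, RPA2, RPA3 and CCNE2. The first window listed was used where a gene has several. The E2F words searched were TTTCGCGC, TTTGGCGC, TTTCCCGC and TTTGCCGC, and the second element was CCAAT, the site of the factor NF-Y, each on both strands. Capitals mark the matches, and in POLE the CCAAT word overlaps its reverse complement. MCM7 lies at chr7:100101398-100101647 on the minus strand, POLE at chr12:132687343-132687592 on the minus strand, TYMS at chr18:657403-657652 on the plus strand, E2F2 at chr1:23531234-23531483 on the minus strand and UHRF1 at chr19:4909251-4909500 on the plus strand, in each case for the 250 bases before a RefSeq transcript start. For the first 4 that start is the annotated 5′ end of the gene, while for UHRF1 it lies 6421 bases inside the annotated gene, whose span begins further upstream. All are printed from 5′ to 3′ in the direction of transcription.
MCM7: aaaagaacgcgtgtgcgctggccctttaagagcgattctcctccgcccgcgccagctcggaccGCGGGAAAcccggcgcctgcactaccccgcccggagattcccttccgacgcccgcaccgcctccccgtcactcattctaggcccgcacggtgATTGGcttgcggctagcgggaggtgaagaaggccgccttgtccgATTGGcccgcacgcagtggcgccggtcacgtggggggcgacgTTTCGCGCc
POLE: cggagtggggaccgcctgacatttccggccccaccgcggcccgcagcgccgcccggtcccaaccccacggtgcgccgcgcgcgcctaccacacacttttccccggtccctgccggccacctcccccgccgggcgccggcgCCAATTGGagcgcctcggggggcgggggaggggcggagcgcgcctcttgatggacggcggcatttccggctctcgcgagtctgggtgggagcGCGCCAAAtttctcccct
TYMS: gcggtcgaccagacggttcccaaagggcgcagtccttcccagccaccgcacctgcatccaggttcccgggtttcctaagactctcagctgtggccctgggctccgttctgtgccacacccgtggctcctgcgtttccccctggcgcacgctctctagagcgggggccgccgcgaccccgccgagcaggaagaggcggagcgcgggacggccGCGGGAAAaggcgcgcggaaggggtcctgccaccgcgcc
E2F2: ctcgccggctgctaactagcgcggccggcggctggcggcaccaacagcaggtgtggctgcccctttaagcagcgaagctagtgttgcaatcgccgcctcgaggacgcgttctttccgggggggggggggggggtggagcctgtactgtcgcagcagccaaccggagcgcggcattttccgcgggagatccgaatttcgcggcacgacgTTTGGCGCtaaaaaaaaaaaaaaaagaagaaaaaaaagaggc
UHRF1: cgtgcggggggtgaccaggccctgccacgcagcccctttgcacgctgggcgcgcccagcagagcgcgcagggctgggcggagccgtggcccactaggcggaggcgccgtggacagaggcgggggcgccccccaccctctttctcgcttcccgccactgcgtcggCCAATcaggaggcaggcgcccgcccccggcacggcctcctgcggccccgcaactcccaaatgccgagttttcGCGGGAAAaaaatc

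An E2F word stood in 15 of the 41 promoters (36.6%), against 761 of 27305 promoters of the whole table (2.8%) and 460 of 11160 promoters of genes tested here (4.1%). A CCAAT word stood in 22 of the 41 (53.7%), against 33.0% of all promoters and 34.7% of those of tested genes, and 9 (22.0%) held both, against 1.1% and 1.8%. MCM7 and the catalytic epsilon subunit gene POLE hold both words, as does UHRF1, whereas TYMS and E2F2 hold an E2F word only. In MCM7 one E2F word lies 2 to 9 bases before the start site. By class, E2F words stood in 5 of 13 licensing promoters, 6 of 15 fork promoters, 1 of 6 for nucleotide supply, 2 of 3 for E2F and cyclin E, and 1 of 4 for chromatin assembly. These matches are letters in a window and were not tested for binding.

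RARA, which checks the transfection, read 9281 to 41097 on the PR2VR arrays and 11971 to 58985 on the PRWT arrays, against 48.2 to 309.2 on the GFP arrays. Of 12 genes listed for a monocytic line, 9 of the 11 measured passed the filter, among them PTPRC at 16411 to 46039 and LYZ at 3294 to 21336, while SPI1 at 17.2 to 536.1 and CD14 at 18.2 to 350.3 did not. Genes of other blood cells were not all near background, with IL7R at 3666 to 41772, NKG7 at 1489 to 11471 and PAX5 at 2167 to 16215, although CD3E stayed between 41.0 and 312.4. The 3 arrays of replicate number 2 at 9 h stood apart: their GAPDH ratios, 3′ over 5′, which grow with RNA degradation, were 2.21 to 2.75, against 3.82 to 12.93 on the other 9 arrays, and their median signals were 387.8 to 436.0, against 238.6 to 292.1. On the second principal component over all genes tested, array 1 of PR2VR at 6 h also lay apart, at 65.2. The arrays of number 2 at 6 h lay apart on the other side of it, at -41.1 in PR2VR, -40.7 in PRWT and -36.8 in GFP cells. The remaining arrays lay between -0.3 and 14.8, so this set differed over all genes tested and not in the replication genes alone.

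All 48 replication genes were well expressed on every array. None of the 576 values lay under the filter signal of 168.9, and they ran from 322.3 for GINS4, a subunit of the helicase complex, to 160935 for the helicase subunit MCM7. SLBP, the protein that binds the stem-loop of histone mRNA, varied least, with a highest over lowest signal of 1.59, followed by the clamp gene PCNA at 1.64. CDT1, the licensing factor, varied most, at 11.55, where array 1 of PR2VR at 6 h read 22068 and the other 11 arrays between 1911 and 7167. Among replicates the SD on the log2 scale had a median of 0.59 over the 48 genes, against 0.54 over all genes tested.

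**Figure D1:**
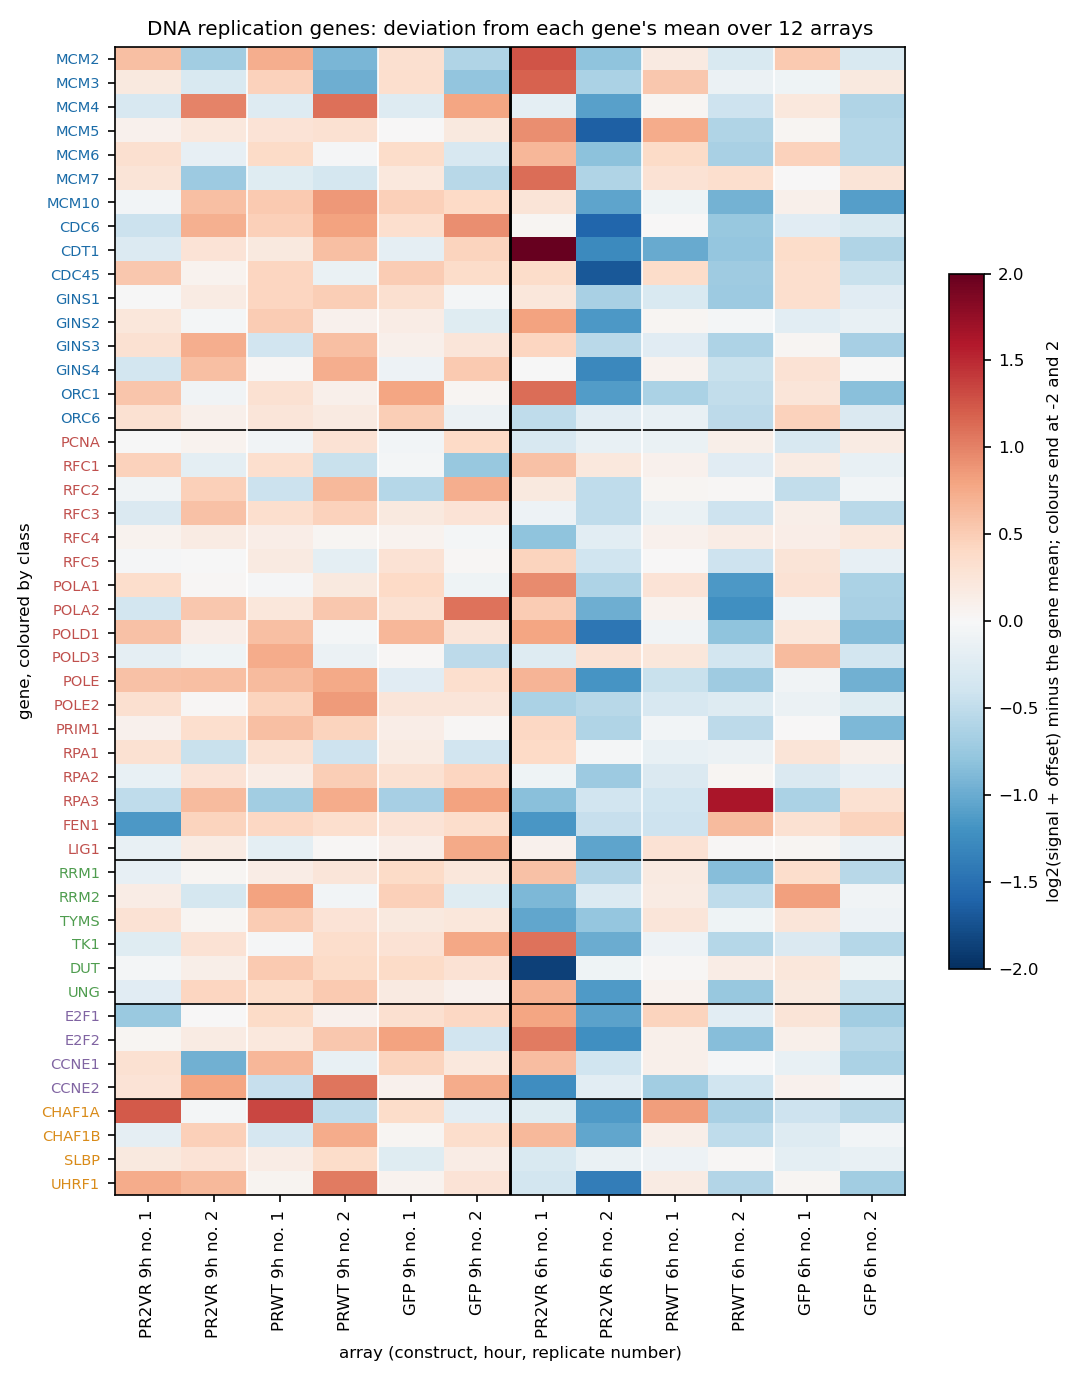
Deviation of each of the 48 replication genes (rows, coloured by class) from its own mean over 12 arrays, in log2(signal + 62.5), for every array (columns, 9 h arrays left of 6 h arrays). The arrays of number 2 at 6 h are blue over most rows, above all in PR2VR cells, and array 1 of PR2VR at 6 h is red in most licensing genes and deep blue for DUT.

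The first comparison set PRWT and PR2VR together against GFP, over both hours. No replication gene passed an adjusted p of 0.05 in limma (0 of 48, against 1 of all 13959 genes, 0.00716%), and 0 of 48 had an unadjusted p under 0.05 (all genes 439, 3.14%). Of the 48, 20 lay above 0 and 28 below (all genes 47.6% above), or 24 and 24 with array medians subtracted (all genes 52.5% above), with a median log2 difference of -0.04, against -0.02 over all genes tested. In bulk RNA of sorted cells, fewer cells in S phase and less of a transcript per cell cannot be told apart. The count above 0 was 8 of 48 without array 1 of PR2VR at 6 h and 29 of 48 without array 2. The 95% interval of the difference stayed within 1 log2 unit either way for 38 of the 48 genes, so for these a doubling or halving lay outside it, and the widest bounds were -1.19 for FEN1 and 1.18 for CHAF1A. With time point and replicate number as a block, 44 genes of the transcriptome passed (0.315%; 1 without the arrays of number 2 at 9 h), and again 0 of 48 replication genes, with 0 at an unadjusted p under 0.05 (all genes 1172, 8.4%).

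Each fusion was also set against GFP alone. For PRWT, 0 of 48 passed in limma (all genes 1, 0.00716%) and 0 of 48 had an unadjusted p under 0.05 (all genes 288, 2.06%), with 27 above 0 and 21 below (all genes 50.6% above) and a median of 0.02. With the block it was 0 of 48 as well (all genes 760, 5.44%). For PR2VR, 0 of 48 passed (all genes 1, 0.00716%) and 2 of 48 had an unadjusted p under 0.05 (all genes 551, 3.95%), with 18 above 0 and 30 below (all genes 46.9% above) and a median of -0.06. Those 2 were FEN1 and TYMS, both lower in PR2VR cells (all genes 1.91% lower with such a p). With the block 5 of 48 had an unadjusted p under 0.05 for PR2VR (all genes 1546, 11.1%), which adds DUT, RRM2 and, on the higher side, RFC1, and 0 of 48 passed (all genes 41, 0.294%; 1 without the arrays of number 2 at 9 h). The count above 0 for PR2VR turned on single arrays, with 4 of 48 without array 1 of PR2VR at 6 h and 33 of 48 without array 2.

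The 2 forms of the fusion were then set against each other. Between PR2VR and PRWT 0 of 48 replication genes passed in limma, as did 0 of all genes (0%), and 3 of 48 had an unadjusted p under 0.05 (all genes 216, 1.55%), namely FEN1, TYMS and DUT, all lower in PR2VR (all genes 0.96% lower with such a p). Of the 48, 16 lay above 0 and 32 below (all genes 48.7% above), a split that became 22 above and 26 below with array medians subtracted (all genes 55.7% above). The median difference was -0.10, against -0.01 over all genes tested. With the block 4 of 48 had an unadjusted p under 0.05 (all genes 957, 6.86%), which adds RPA3, and 0 of 48 passed. The count above 0 rested on single sets of arrays: it was 25 of 48 with the arrays of number 2 at 6 h omitted and 9 of 48 with those of number 1 at 6 h omitted, and 28 and 5 of 48 without only array 2 or array 1 of PR2VR at 6 h.

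**Figure D2:**
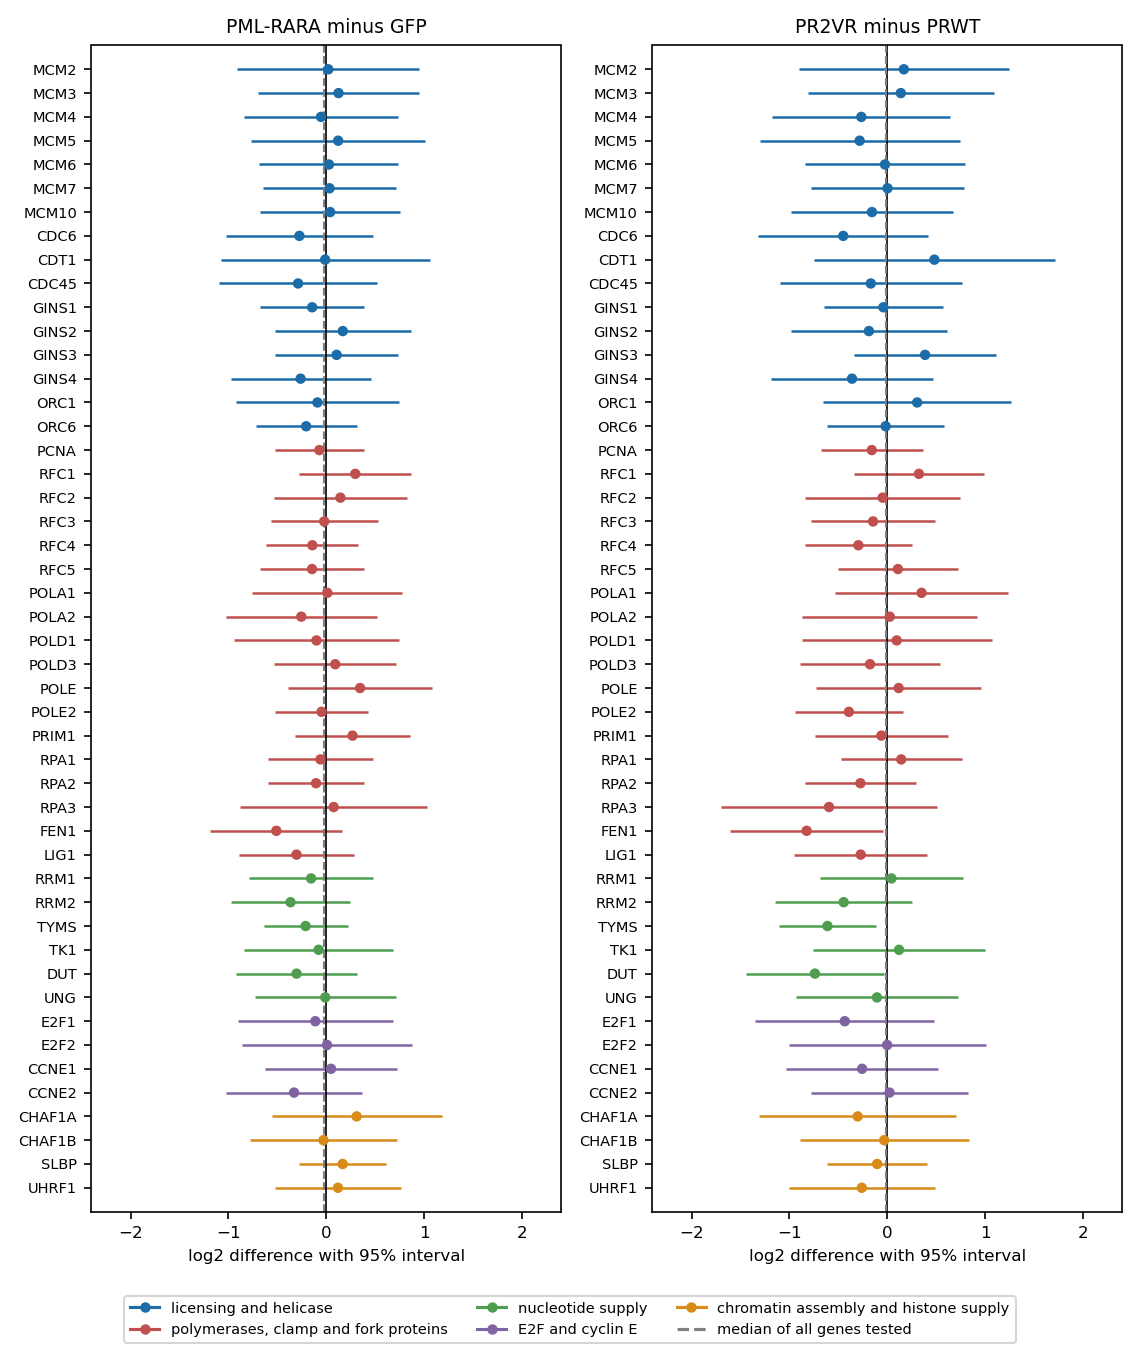
Log2 differences with their 95% intervals for each of the 48 replication genes, coloured by class, for PML-RARA (PRWT and PR2VR) minus GFP on the left and PR2VR minus PRWT on the right; the dashed line is the median of all 13959 genes tested. Every interval on the left crosses 0, and on the right those of FEN1, TYMS and DUT do not.

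The next comparison set 9 h against 6 h over all constructs. No replication gene passed in limma (0 of 48, against 11 of all genes, 0.0788%), with a smallest adjusted p of 0.204, while 10 of 48 had an unadjusted p under 0.05 (all genes 2105, 15.1%). All 10 were higher at 9 h, where 10.1% of all genes had such a p and a higher value: MCM10, CDC6, POLE2, POLE, POLA2, RFC3, RPA2, TYMS, CCNE2 and UHRF1. Of the 48, 42 lay above 0 and 6 below (all genes 60.6% above), with a median of 0.38, against 0.13 over all genes tested. With array medians subtracted, a scaling that moves the median of all genes to -0.16, 30 of the 48 lay above 0 and 18 below (all genes 37.8% above), with a median of 0.10. With the set as a random block 5 of 48 had an unadjusted p under 0.05 (all genes 766, 5.49%) and 0 of 48 passed, with a smallest adjusted p of 0.857.

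The difference between the hours depended mostly on one set of arrays. On the arrays of number 2 at 6 h the 48 genes had a median deviation from their own mean of -0.69 in PR2VR, -0.43 in PRWT and -0.30 in GFP cells. The other 9 arrays lay between 0.04 and 0.38, and over all genes tested no array left the range of -0.12 to 0.14. When 9 h number 2 was set against 6 h number 2, 42 of the 48 genes lay above 0 with a median of 0.77 (all genes 60.8% above, median 0.21). When 9 h number 1 was set against 6 h number 1, 25 lay above 0 and 23 below, with a median of 0.08 (all genes 52.3% above, median 0.03). Without the arrays of number 2 at 6 h, 29 of the 48 lay above 0, and without those of number 2 at 9 h, which had the lowest 3′ to 5′ ratios, 44 did. GAPDH ratios ran from 2.21 to 12.93 at 9 h and from 3.82 to 8.28 at 6 h, and their part in the difference between the hours was not tested.

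**Figure D3:**
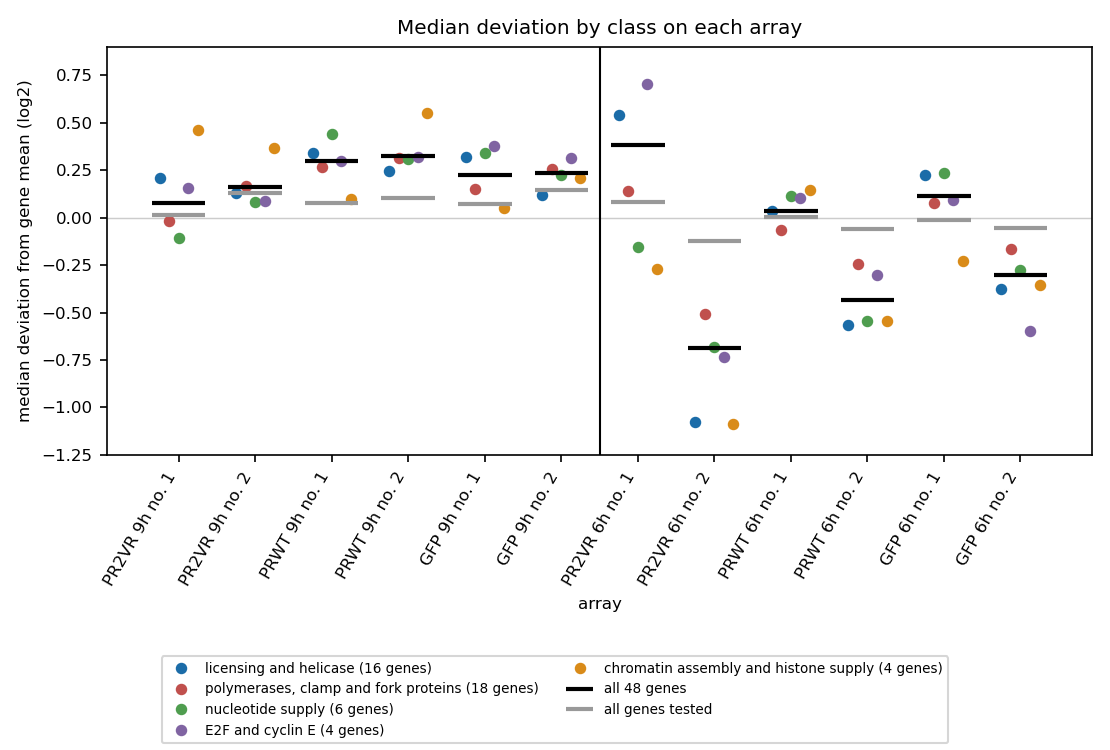
Median deviation from the gene mean (log2) on each array, for each class (coloured points), for all 48 replication genes (black bars) and for all genes tested (grey bars), with 9 h arrays left of 6 h arrays. The 3 arrays of number 2 at 6 h are the only ones with black bars below 0, at -0.69 in PR2VR, -0.43 in PRWT and -0.30 in GFP cells.

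Within 6 h, number 1 read above number 2 for 36 of the 48 genes in PR2VR (all genes 59.2%), 35 in PRWT (53.5%) and 37 in GFP cells (52.3%), and in all 3 constructs for 27 of 48 (23.7%). Within 9 h the same held for 18, 22 and 26 of the 48 (43.9%, 48.3% and 46.6%), so the 2 sets of 9 h arrays showed no such offset for the genes as a whole. Array 2 of PR2VR at 6 h was the lowest of the 12 arrays for 20 of the 48 genes (14.3% of all genes tested), and array 1 of PR2VR at 6 h was the highest for 18 (17.7%) and the lowest for 9 (14.6%). The 9 h against 6 h difference within PR2VR depended on this pair of arrays: its median over the 48 genes was 0.41 with both, 0.79 without number 1 and -0.08 without number 2. It was 0.42 within PRWT and 0.35 within GFP cells. In PR2VR 36 of the 48 lay above 0 (all genes 57.9%), in PRWT 42 (56.3%) and in GFP cells 39 (59.8%). Within single constructs 0 of 48 passed in limma, with 4 of 48 at an unadjusted p under 0.05 in PR2VR (all genes 597, 4.28%), 4 of 48 in PRWT (all genes 630, 4.51%) and 0 of 48 in GFP cells (all genes 677, 4.85%). None of all genes tested passed in these 3 comparisons either.

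At each hour alone, 0 of 48 replication genes passed for the fusion against GFP (all genes 1, 0.00716%, at 9 h and at 6 h), and 0 of 48 had an unadjusted p under 0.05 at 9 h (all genes 291, 2.08%) or at 6 h (all genes 255, 1.83%). With the block 0 of 48 had such a p at 9 h (all genes 882, 6.32%), 2 of 48 at 6 h, RRM2 and TYMS (all genes 786, 5.63%), and 0 of 48 in the interaction described next (all genes 434, 3.11%). At 9 h 29 of the 48 lay above 0 (all genes 45.7%), and at 6 h 18 did (all genes 50.4%). The 6 h count was 6 of 48 without array 1 of PR2VR at 6 h and 35 of 48 without array 2. The difference between the 2 hours in the effect of the fusion, tested as an interaction, passed for 0 of 48 and for 0 of all genes, and 0 of 48 had an unadjusted p under 0.05 (all genes 106, 0.759%). For 31 of the 48 it lay above 0 (all genes 48%), with 40 and 19 of 48 without array 1 and array 2 of PR2VR at 6 h. Its interval stayed within 1 log2 unit either way for 1 of the 48 genes, so these arrays give little precision on it.

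Among the licensing and helicase genes, 8 of 16 lay above 0 in fusion against GFP cells (median 0.01, all genes 47.6% above). In PR2VR against PRWT 6 of 16 did (median -0.03, all genes 48.7%), and at 9 h against 6 h 13 of 16 (median 0.42, all genes 60.6%). With array medians subtracted the counts were 9, 9 and 11 of 16, against 52.5%, 55.7% and 37.8% of all genes. CDC6, the ATPase that loads the helicase at origins, read 936 and 2132 in PR2VR, 1809 and 2279 in PRWT and 1625 and 2476 in GFP cells at 9 h. At 6 h CDC6 read 1307 and 383 in PR2VR, 1281 and 728 in PRWT and 1086 and 1021 in GFP cells. All but 1 of the 9 h arrays were above every 6 h array, the exception being array 1 of PR2VR, and array 2 of PR2VR at 6 h was the lowest of all. Its log2 difference (± SE throughout) was 0.95 ± 0.33 between the hours (adjusted p = 0.24), -0.27 ± 0.35 between fusion and GFP and -0.45 ± 0.40 between PR2VR and PRWT (adjusted p = 1.0 for both). The other CDC6 probe set gave 0.81, 0.09 and -0.22 for these, so that for fusion against GFP the signs differ. MCM10, which helps to start the helicase and holds polymerase alpha at the fork, read 2202 and 3516 in PR2VR, 3319 and 4268 in PRWT and 3231 and 3067 in GFP cells at 9 h. At 6 h MCM10 read 2765 and 1074 in PR2VR, 2175 and 1162 in PRWT and 2475 and 1043 in GFP cells. Again 5 of the 6 arrays at 9 h lay above all those at 6 h, and the 3 lowest were the arrays of number 2 at 6 h. The difference was 0.94 ± 0.31 (adjusted p = 0.233), its other probe sets gave 1.48 and 1.13, and without the arrays of number 2 at 6 h it was 0.38.

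The subunits of the helicase ring gave differences of both signs, none of them passing. MCM4 read 7307 and 18306 in PR2VR, 7615 and 19615 in PRWT and 7641 and 15809 in GFP cells at 9 h. At 6 h MCM4 read 7994 and 4243 in PR2VR, 9379 and 6802 in PRWT and 10555 and 5987 in GFP cells. The number 2 arrays at 9 h were highest and number 2 of PR2VR at 6 h lowest, with a difference of 0.69 ± 0.34 between the hours (adjusted p = 0.362). MCM2, MCM3 and MCM7, which sit in the same ring, lay below 0 between the hours, at -0.19 ± 0.41, -0.36 ± 0.36 and -0.47 ± 0.30, with adjusted p of 0.848, 0.637 and 0.455. MCM5 and MCM6 lay above it, at 0.36 ± 0.39 and 0.18 ± 0.31, with adjusted p of 0.666 and 0.795, and no difference between subunits was tested. Within 9 h, number 1 minus number 2 was -1.32 in PR2VR, -1.36 in PRWT and -1.04 in GFP cells for MCM4. For MCM2 it was 1.28, 1.65 and 0.93 in the same order of constructs, opposite in sign to MCM4. Within 6 h both subunits read higher on number 1 in each construct, by 0.90, 0.46 and 0.81 for MCM4 and by 2.06, 0.49 and 0.83 for MCM2.

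GINS subunits and ORC6 gave small or uncertain differences. GINS4 read 665 and 1367 at 9 h and 877 and 322 at 6 h in PR2VR cells, and 892 and 1501 at 9 h and 924 and 630 at 6 h in PRWT cells. In GFP cells GINS4 read 815 and 1285 at 9 h and 1085 and 879 at 6 h. Its 3 constructs overlapped, array 2 of PR2VR at 6 h was the lowest, and the differences were -0.26 ± 0.33 between fusion and GFP and -0.36 ± 0.38 between PR2VR and PRWT (adjusted p = 1.0 for both). The second of these was 0.18 as the median over its 4 probe sets, which do not share a sign. GINS3, of the same complex, read 3948 and 5287 at 9 h and 4291 and 2162 at 6 h in PR2VR cells, and 2414 and 4831 at 9 h and 2706 and 2053 at 6 h in PRWT cells. In GFP cells GINS3 read 3411 and 3774 at 9 h and 3259 and 1984 at 6 h. PR2VR held the highest array and overlapped with PRWT, with a difference of 0.39 ± 0.34 (adjusted p = 1.0) and -0.21 for the other probe set. ORC6, the smallest subunit of the origin recognition complex, read 17313 and 15052 at 9 h and 9813 and 12034 at 6 h in PR2VR cells, and 16556 and 15846 at 9 h and 12653 and 9704 at 6 h in PRWT cells. In GFP cells ORC6 read 19628 and 12860 at 9 h and 19329 and 11417 at 6 h. The highest pair of values came from GFP cells, and the fusion differed from GFP by -0.21 ± 0.24, with an interval of -0.72 to 0.31 (adjusted p = 1.0). The other 10 licensing genes, MCM2, MCM3, MCM5, MCM6, MCM7, CDT1, CDC45, GINS1, GINS2 and ORC1, lay between -0.29 and 0.17 in fusion against GFP.

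Among the polymerase, clamp and fork genes, 7 of 18 lay above 0 in fusion against GFP cells (median -0.05, all genes 47.6% above). In PR2VR against PRWT 7 of 18 did (median -0.10, all genes 48.7%), and at 9 h against 6 h 15 of 18 (median 0.26, all genes 60.6%). With array medians subtracted the count was 8 of 18 in each, against 52.5%, 55.7% and 37.8% of all genes in the same order. FEN1, the nuclease that removes the flaps of lagging-strand fragments, gave the most negative difference of the 48 genes both for fusion against GFP and for PR2VR against PRWT. It read 8594 and 26008 at 9 h and 8528 and 13950 at 6 h in PR2VR cells, and 25659 and 24221 at 9 h and 14298 and 29673 at 6 h in PRWT cells. In GFP cells FEN1 read 23038 and 24356 at 9 h and 23732 and 25987 at 6 h. Array 1 of PR2VR at both hours and array 2 of PR2VR at 6 h were low, as was array 1 of PRWT at 6 h, while array 2 of PR2VR at 9 h read above every GFP array. PR2VR differed by -0.82 ± 0.36 from PRWT (unadjusted p = 0.0401, adjusted p = 1.0) and by -0.92 ± 0.36 from GFP (unadjusted p = 0.0242, adjusted p = 1.0), and both fusions together by -0.51 ± 0.31 from GFP. With the block the adjusted p was 0.723 and 0.225 for the first and second of these. The second probe set of FEN1 gave -0.01 for PR2VR against PRWT and -0.09 for fusion against GFP, so the 2 probe sets disagree. Against PRWT the difference was -0.41 without the arrays of number 1 at 9 h and -1.24 without those of number 2 at 9 h.

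POLE2, an accessory subunit of polymerase epsilon, was the only gene of the 48 whose 9 h arrays all lay above its 6 h arrays (all genes 174, 1.25%), and 0 of 48 showed the reverse (all genes 93, 0.666%). It read 4798 and 3927 in PR2VR, 5287 and 6969 in PRWT and 4574 and 4560 in GFP cells at 9 h. At 6 h POLE2 read 2451 and 2606 in PR2VR, 3074 and 3210 in PRWT and 3554 and 3237 in GFP cells. The lowest 9 h array read 3927, against 3554 for the highest 6 h array, and at 6 h the PR2VR arrays were the lowest pair. The difference between the hours was 0.71 ± 0.21 (unadjusted p = 0.00468, adjusted p = 0.204) and lay between 0.69 and 0.73 with any of the 4 sets of arrays omitted. PR2VR differed from PRWT by -0.39 ± 0.26 (adjusted p = 1.0). For fusion against GFP no gene of the 48 separated all arrays of one side from the other, where 0.229% of all genes lay wholly above and 0.251% wholly below, and between PR2VR and PRWT the count was 0 of 48 as well (0.501% and 0.53%).

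POLE, the catalytic subunit of polymerase epsilon, read 2370 and 2400 in PR2VR, 2446 and 2682 in PRWT and 1327 and 1972 in GFP cells at 9 h. At 6 h POLE read 2532 and 655 in PR2VR, 1124 and 925 in PRWT and 1484 and 768 in GFP cells. At 6 h array 1 of PR2VR and array 1 of GFP lay among the 9 h arrays, while the other 4 lay below all of them. The difference was 0.90 ± 0.32 (adjusted p = 0.247), which was 0.39 without the arrays of number 2 at 6 h. POLA2, a subunit of polymerase alpha, read 1694 and 3227 in PR2VR, 2592 and 3208 in PRWT and 2734 and 4754 in GFP cells at 9 h. At 6 h POLA2 read 3145 and 1088 in PR2VR, 2299 and 907 in PRWT and 2078 and 1383 in GFP cells. Both hours overlapped, array 2 of GFP at 9 h was the highest, and the difference was 0.78 ± 0.34 (adjusted p = 0.314), with 0.20 and 0.23 for its other probe sets.

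RFC1 and RFC4 belong to the complex that loads the PCNA clamp. RFC1, the large subunit, read 9435 and 5961 at 9 h and 10308 and 7915 at 6 h in PR2VR cells, and 8711 and 4995 at 9 h and 7312 and 5823 at 6 h in PRWT cells. In GFP cells RFC1 read 6695 and 4023 at 9 h and 7664 and 6149 at 6 h. At 9 h number 1 exceeded number 2 in each construct, by 0.66 in PR2VR, 0.80 in PRWT and 0.73 in GFP cells on the log2 scale. The fusion differed from GFP by 0.30 ± 0.27 (adjusted p = 1.0) by this probe set and by -0.17 by the second. RFC4, a small subunit, read 8740 and 9387 at 9 h and 4762 and 7197 at 6 h in PR2VR cells, and 9207 and 8537 at 9 h and 8834 and 9249 at 6 h in PRWT cells. In GFP cells RFC4 read 8772 and 8131 at 9 h and 9165 and 9683 at 6 h. Array 1 of PR2VR at 6 h was the lowest and the other 11 arrays lay between 7197 and 9683, with a difference of -0.30 ± 0.25 between PR2VR and PRWT (adjusted p = 1.0). LIG1, the ligase that seals lagging-strand fragments, read 1717 and 2135 at 9 h and 2020 and 882 at 6 h in PR2VR cells, and 1646 and 1936 at 9 h and 2327 and 1934 at 6 h in PRWT cells. In GFP cells LIG1 read 2091 and 3242 at 9 h and 1948 and 1753 at 6 h. Array 2 of GFP at 9 h was the highest and array 2 of PR2VR at 6 h the lowest, and the fusion differed from GFP by -0.30 ± 0.27 (adjusted p = 1.0).

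The remaining 11 fork genes were PCNA, RFC2, RFC3, RFC5, POLA1, POLD1, POLD3, PRIM1, RPA1, RPA2 and RPA3. PCNA differed by -0.07 ± 0.21 between fusion and GFP, with an interval of -0.52 to 0.38, and by 0.21 ± 0.20 between the hours. RFC3 and RPA2, a subunit of the single-strand binding protein, differed between the hours by 0.52 ± 0.24 and 0.50 ± 0.22, with adjusted p of 0.328 and 0.314. RPA3 differed by replicate number: at 9 h number 1 minus number 2 was -1.15 in PR2VR, -1.45 in PRWT and -1.47 in GFP cells, and array 2 of PRWT at 6 h read 19916, against 3522 to 11090 on the other arrays.

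By the probe sets used, all 6 nucleotide supply genes lay below 0 in fusion against GFP cells (median -0.18, 0 passing, all genes 47.6% above 0). In PR2VR against PRWT 4 of 6 lay below 0 (median -0.28, all genes 48.7% above 0). At 9 h against 6 h all 6 lay above 0 (median 0.47, 0 passing, all genes 60.6% above 0). For fusion against GFP the second RRM1 probe set lay above 0, at 0.33. Other probe sets above the filter gave -0.10 for RRM2, -0.43 for TK1, -0.23 for TYMS and -0.14 and -0.10 for DUT. With array medians subtracted 1 of 6 lay above 0 in fusion against GFP (all genes 52.5%), 2 of 6 in PR2VR against PRWT (55.7%) and 5 of 6 between the hours (37.8%). TYMS, which makes thymidylate and is the target of fluorouracil, read 64625 and 54576 at 9 h and 25727 and 30889 at 6 h in PR2VR cells, and 75926 and 64029 at 9 h and 62718 and 50201 at 6 h in PRWT cells. In GFP cells TYMS read 61101 and 62072 at 9 h and 62956 and 49311 at 6 h. The pair of PR2VR arrays at 6 h were the lowest of the 12, below the next lowest of 49311, while at 9 h array 1 of PR2VR lay among those of PRWT and GFP and array 2 below all 4 of them. PR2VR differed from PRWT by -0.61 ± 0.23 (unadjusted p = 0.0195, adjusted p = 1.0) and from GFP by -0.52 ± 0.23 (unadjusted p = 0.0422, adjusted p = 1.0). With the block the adjusted p was 0.723 against PRWT and 0.262 against GFP. The difference from PRWT lay between -0.76 and -0.47 with any of the 4 sets of arrays omitted, and a second probe set gave -0.44. Between the hours TYMS differed by 0.51 ± 0.19 over all constructs (adjusted p = 0.256), and by 1.07 ± 0.33 in PR2VR cells, 0.31 ± 0.33 in PRWT cells and 0.14 ± 0.33 in GFP cells. The difference between these 2 hours in the effect of both fusions together was 0.55 ± 0.40 (adjusted p = 1.0), and that for PR2VR alone was not tested.

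DUT, the enzyme that keeps uracil out of DNA by cleaving dUTP, read 60773 and 68236 at 9 h and 17066 and 58845 at 6 h in PR2VR cells, and 90434 and 81304 at 9 h and 63408 and 69497 at 6 h in PRWT cells. In GFP cells DUT read 82083 and 76321 at 9 h and 73336 and 58736 at 6 h. Array 1 of PR2VR at 6 h stood below all others, and on the other 11 arrays, from 58736 to 90434, the constructs overlapped. PR2VR differed from PRWT by -0.74 ± 0.33 (unadjusted p = 0.0424, adjusted p = 1.0, and 0.723 with the block), and by -0.29 without array 1 of PR2VR at 6 h. Its other probe sets gave -0.34 and -0.12. Fusion and GFP differed by -0.30 ± 0.28 (adjusted p = 1.0), and the hours by 0.55 ± 0.27 (adjusted p = 0.349). RRM2, the small subunit of ribonucleotide reductase, which makes deoxynucleotides, read 50172 and 35455 at 9 h and 24454 and 37522 at 6 h in PR2VR cells, and 79093 and 43759 at 9 h and 50974 and 31800 at 6 h in PRWT cells. In GFP cells RRM2 read 62970 and 38476 at 9 h and 79797 and 43183 at 6 h. Array 1 of PR2VR at 6 h was again the lowest, number 1 of GFP at 6 h and of PRWT at 9 h were the highest, and the fusion differed from GFP by -0.37 ± 0.28 (adjusted p = 1.0). RRM1, TK1 and UNG differed by -0.16 ± 0.29, -0.08 ± 0.35 and -0.01 ± 0.33 between fusion and GFP. RRM1, TK1 (thymidine kinase) and UNG (uracil glycosylase) each had their highest value on array 1 of PR2VR at 6 h, where TYMS, DUT and RRM2 had their lowest, so this array did not move the class in 1 direction.

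**Figure D4:**
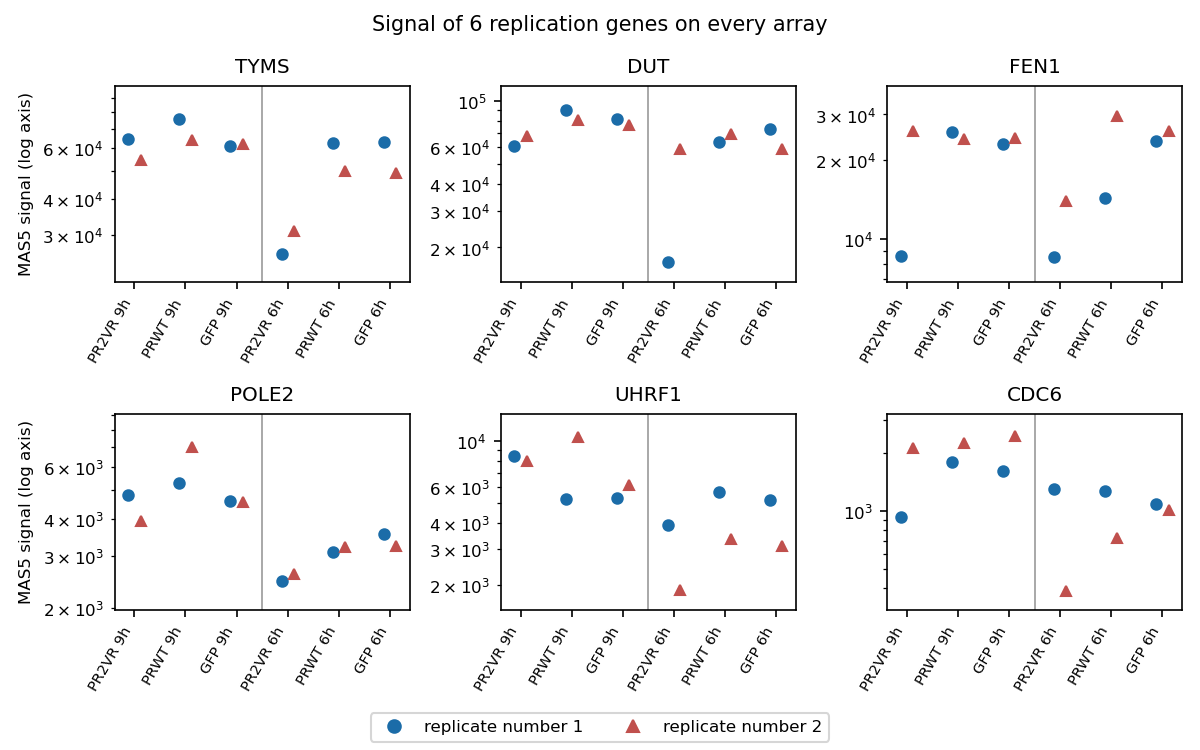
MAS5 signal (log axis) of TYMS, DUT, FEN1, POLE2, UHRF1 and CDC6 on every array, with replicate number 1 as blue circles and number 2 as red triangles, and 9 h left of 6 h. TYMS is lowest on the pair of PR2VR arrays at 6 h, DUT on array 1 of PR2VR at 6 h, and the 9 h values of POLE2 all lie above its 6 h values.

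Among the E2F and cyclin E genes, 2 of 4 lay above 0 in fusion against GFP cells (median -0.05, all genes 47.6% above). In PR2VR against PRWT 1 of 4 did (median -0.13, all genes 48.7%), and at 9 h against 6 h 4 of 4 (median 0.31, all genes 60.6%). With array medians subtracted the count was 2 of 4 in each, against 52.5%, 55.7% and 37.8% of all genes in the same order. CCNE2, an E-type cyclin that activates CDK2 at the start of S phase, read 5568 and 7907 in PR2VR, 3299 and 9683 in PRWT and 4865 and 7664 in GFP cells at 9 h. At 6 h CCNE2 read 1898 and 3942 in PR2VR, 2795 and 3461 in PRWT and 4835 and 4484 in GFP cells. Of the 6 arrays at 9 h, 5 lay above all those at 6 h, and array 1 of PRWT at 9 h was the exception. The difference between the hours was 0.83 ± 0.31 (adjusted p = 0.255), or 0.38 without the arrays of number 2 at 9 h, and the fusion differed from GFP by -0.33 ± 0.32 (adjusted p = 1.0). The second CCNE2 probe set gave 0.60 between the hours and 0.06 between fusion and GFP. E2F1, an activator of S phase genes, read 467 and 833 at 9 h and 1469 and 361 at 6 h in PR2VR cells, and 1100 and 885 at 9 h and 1152 and 704 at 6 h in PRWT cells. In GFP cells E2F1 read 1042 and 1125 at 9 h and 1002 and 486 at 6 h. The constructs overlapped, both the highest and the lowest array were PR2VR at 6 h, and the differences were -0.11 ± 0.37 between fusion and GFP and -0.43 ± 0.42 between PR2VR and PRWT (adjusted p = 1.0 for both). The second E2F1 probe set gave -1.01 and -1.18 for the same comparisons.

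E2F2, a further activator, read 1546 and 1703 in PR2VR, 1753 and 2231 in PRWT and 2697 and 1149 in GFP cells at 9 h. At 6 h E2F2 read 3165 and 610 in PR2VR, 1632 and 814 in PRWT and 1628 and 1006 in GFP cells. The hours overlapped, with the highest and the lowest array both PR2VR at 6 h, and the difference was 0.46 ± 0.38 (adjusted p = 0.567), or -0.19 without the arrays of number 2 at 6 h. CCNE1, the other E-type cyclin, read 3060 and 1234 at 9 h and 3831 and 1854 at 6 h in PR2VR cells, and 3936 and 2225 at 9 h and 2650 and 2422 at 6 h in PRWT cells. In GFP cells CCNE1 read 3377 and 2860 at 9 h and 2230 and 1572 at 6 h. Array 2 of PR2VR at 9 h was the lowest, the constructs overlapped, and PR2VR differed from PRWT by -0.26 ± 0.36 (adjusted p = 1.0).

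In chromatin assembly and histone supply, 3 of 4 genes lay above 0 in fusion against GFP cells (median 0.14, all genes 47.6% above). In PR2VR against PRWT 0 of 4 did (median -0.18, 0 passing, all genes 48.7%), and at 9 h against 6 h 4 of 4 (median 0.54, 0 passing, all genes 60.6%). With array medians subtracted the counts were 4, 1 and 4 of 4, against 52.5%, 55.7% and 37.8% of all genes. UHRF1, which brings the maintenance methyltransferase to newly copied DNA, read 8437 and 7971 in PR2VR, 5255 and 10421 in PRWT and 5304 and 6090 in GFP cells at 9 h. At 6 h UHRF1 read 3901 and 1894 in PR2VR, 5665 and 3344 in PRWT and 5170 and 3088 in GFP cells. At 9 h 4 of 6 arrays lay above every 6 h array, and the 3 lowest were those of number 2 at 6 h. The difference between the hours was 0.94 ± 0.28 (unadjusted p = 0.00517, adjusted p = 0.206), or 0.53 without the arrays of number 2 at 6 h, and PR2VR differed from PRWT by -0.26 ± 0.35 (adjusted p = 1.0). With the set as a random block UHRF1 differed by 0.94 ± 0.36 between the hours (unadjusted p = 0.0189, adjusted p = 0.857). CHAF1A, the large subunit of the assembly factor that loads histones behind the fork, read 15094 and 6255 in PR2VR, 16353 and 4523 in PRWT and 8327 and 5539 in GFP cells at 9 h. At 6 h CHAF1A read 5463 and 2912 in PR2VR, 11546 and 4099 in PRWT and 4796 and 4356 in GFP cells. Number 1 of PR2VR and PRWT at 9 h and of PRWT at 6 h were high, the hours overlapped, and the difference was 0.72 ± 0.38 (adjusted p = 0.382), against 0.09 and 0.35 by its other probe sets. CHAF1A differed by 0.31 ± 0.40 between fusion and GFP and by -0.30 ± 0.47 between PR2VR and PRWT.

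SLBP, the most stable of the 48, read 22353 and 23620 at 9 h and 15894 and 17813 at 6 h in PR2VR cells, and 21626 and 25216 at 9 h and 18314 and 19936 at 6 h in PRWT cells. In GFP cells SLBP read 16487 and 21742 at 9 h and 17038 and 17715 at 6 h. The fusion differed from GFP by 0.17 ± 0.21 with an interval of -0.28 to 0.61 (adjusted p = 1.0), so both a doubling and a halving lay outside it. At 9 h 5 of the 6 SLBP arrays lay above all those at 6 h, with a difference of 0.29 ± 0.19 (adjusted p = 0.485). CHAF1B, the middle subunit of the assembly factor, differed by -0.03 ± 0.35 and 0.36 ± 0.33 in the comparisons with GFP and between the hours.

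**Figure D5:**
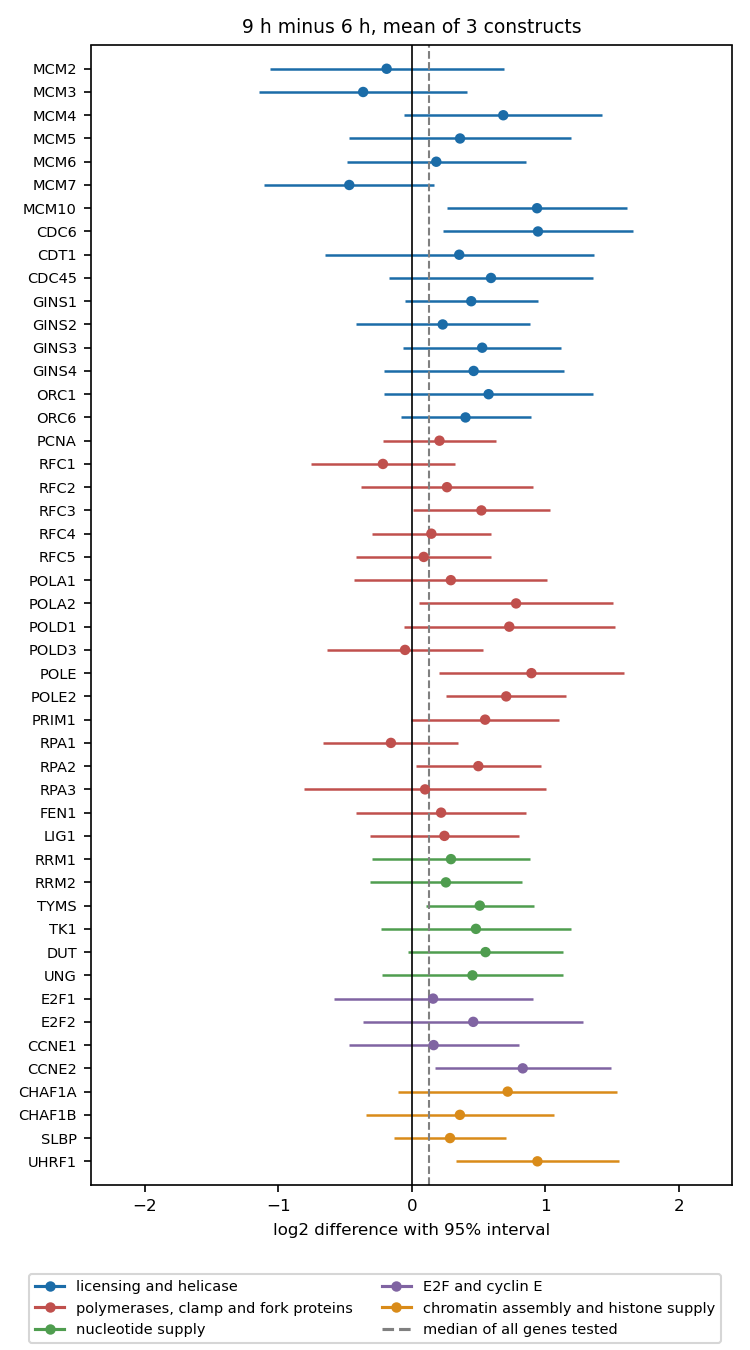
Log2 difference of 9 h minus 6 h, averaged over the 3 constructs, with its 95% interval for each of the 48 replication genes, coloured by class; the dashed line is the median of all genes tested, at 0.13. Points of 42 genes lie above 0, and those of MCM2, MCM3, MCM7, RFC1, POLD3 and RPA1 lie below it.

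Other probe sets bear on how far single values can be read. Among the 48 genes, 27 had more than 1 probe set above the filter. All probe sets of a gene shared a sign for 15 of the 27 in fusion against GFP and for 15 in PR2VR against PRWT. Between the hours they did so for 20 of the 27, of which 19 lay above 0 and 1 below. RFC1, POLD3 and RPA1, below 0 by the probe set used, gave 0.72, 0.90 and 0.65 by another one, and RPA1 also gave -0.53. In the other direction, DUT, GINS4, MCM6 and RFC5 lay above 0 and gave -0.05, -0.42, -0.04 and -0.95 by another probe set.

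Genes around the replication machinery that are not among the 48 were described from 4 lists. Without a block 0 genes of these lists passed in limma in fusion against GFP, in PR2VR against PRWT or between the hours. Of their 113 genes tested, 4 had an unadjusted p under 0.05 between fusion and GFP (3.54%, all genes 3.14%), 1 between PR2VR and PRWT (0.885%, all genes 1.55%) and 16 between the hours (14.2%, all genes 15.1%), which is near the share of all genes. Of all genes tested, 60.6% lay above 0 between the hours, with a median of 0.13, and the counts that follow are to be read against this. Among 39 other replication genes the median between the hours was 0.22 with 29 above 0 and 10 below. The clamp loader gene CHTF18 differed by 0.96 ± 0.34 (adjusted p = 0.249), the histone chaperone gene ASF1B by 0.84 ± 0.37 and the nuclease gene DNA2 by 0.72 ± 0.31. Of 17 S phase checkpoint and repair genes 15 lay above 0 between the hours (median 0.47), with CHEK1, the kinase that guards stalled forks, at 1.09 ± 0.26 (adjusted p = 0.144), FANCI at 0.87 ± 0.26 and BRCA1 at 0.83 ± 0.24. Of 30 G2/M genes 21 lay above 0 (median 0.32), with the spindle checkpoint kinase gene BUB1 at 0.84 ± 0.24.

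Among 27 regulators of the passage from G1 to S, CDKN1A, the p21 inhibitor of cyclin-dependent kinases, was the one gene of these lists to pass in a comparison of constructs. Between fusion and GFP it differed by -1.22 ± 0.22 without the block (adjusted p = 0.31) and by -1.22 ± 0.15 with it (adjusted p = 0.0123), where it passed. In PR2VR against GFP it passed with the block as well (adjusted p = 0.0354). Both calls were lost in the blocked fit without the arrays of number 2 at 9 h, with differences of -1.16 ± 0.26 (adjusted p = 0.902) and -1.11 ± 0.30 (adjusted p = 0.781). The median of these 27 genes was 0.01 between fusion and GFP, and the 48 replication genes showed no call in the same comparison. LIN9, a subunit of the complex that controls cell cycle genes, differed by 1.06 ± 0.27 between the hours (adjusted p = 0.175), and E2F5, a repressive E2F factor, by 0.93 ± 0.37 between fusion and GFP (adjusted p = 1.0).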

How the data were processed

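RNA of 12 U937 samples was measured on Affymetrix arrays with 54675 probe sets. The deposited values are linear intensity values made by the authors with MAS5, per the submitters' processing notes (version not stated there), and every array has the same trimmed mean of 1500.2. The platform annotation assigns 1 gene symbol to 41091 probe sets, several to 1801 and none to 11721, and 62 are controls. Signals were taken as log2(signal + 62.5), the offset being the 20th percentile of all values, so differences of dim genes are understated. Genes were kept where the mean log2 value of the brightest probe set reached 7.85, the 40th percentile (a signal of 168.9), which left 13959. Means of the 6 groups were fitted with limma 3.58.1 in R 4.3.3, with a trend in the variance and Benjamini-Hochberg adjustment over all 13959 genes, and calls were made at an adjusted p of 0.05. The fit has 6 residual degrees of freedom, and the number of arrays limits its precision.

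Replicate numbers come from the sample titles. Deviations of same-numbered samples from their group means correlated at 0.15, 0.21 and 0.36 within 6 h and at 0.56, 0.60 and 0.63 within 9 h, and at -0.022 to 0.19 between the hours. Number and hour together were therefore treated as a shared set in further fits, as a fixed block for constructs and as a random block for hours. Values given without mention of a block, among them those of single genes, come from the fit without it. For the hours that fit ignores the shared set. Alternatives changed the offset, filter, scaling, probe set choice, block and arrays used. The genes described individually are the 3 with the smallest p of the licensing and fork classes and the 2 with the smallest p of each other class, for each of the 3 main comparisons, and MCM2, MCM3, MCM7, CDT1, RPA3 and other genes outside that rule were added after their values were seen. The 48 genes, the other lists and the tests were chosen with earlier results of these data known. The fitting code was tested on simulated data.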

Additional observations from a re-analysis of the deposited data

How the results depend on the processing

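Under every alternative run, 0 of the 48 replication genes passed an adjusted p of 0.05 in limma in any comparison, with the block or without. Between the hours the count of all genes passing was 11 as reported and 0 to 632 under the alternatives, the highest without the arrays of number 1 at 9 h, where the smallest adjusted p of a replication gene was 0.0599. With the replicate number as a replicate block, although numbers are not shared between the hours by the check above, 164 of all genes and CHEK1 passed (CHEK1 adjusted p = 0.0327, and 0.857 with the set as a random block). Each set holds 1 array of each construct, so the set as a replicate block can change the SE but not the differences between constructs. The median difference of the 48 genes, -0.038 between fusion and GFP and -0.104 between PR2VR and PRWT, was therefore bound to stay the same. With the block 44 against 1 of all genes passed between fusion and GFP and 41 against 1 between PR2VR and GFP. Without the arrays of number 2 at 9 h the blocked fit called 1 gene in each, an alternative chosen after seeing the data. Besides CDKN1A, the block changed no other call described.

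The median of the 48 genes between 9 h and 6 h in PR2VR cells was 0.405. It was 0.792 without the arrays of number 1 at 6 h and -0.079 without those of number 2 at 6 h, an alternative chosen after seeing the data, and the same without only the PR2VR array of either number. In GFP cells it was 0.351 (all genes 0.14), and -0.05 with array medians subtracted. That scaling moves the median of all genes in this comparison to -0.26, with 32.8% above 0, against 21 of the 48 replication genes. Leaving out each sample in turn gave medians of -0.180 to 0.134 for fusion against GFP, -0.115 to 0.100 for PRWT against GFP, -0.375 to 0.150 for PR2VR against GFP, -0.380 to 0.177 for PR2VR against PRWT, 0.241 to 0.573 between the hours, 0.267 to 0.727 between the hours in PRWT, -0.079 to 0.792 in PR2VR and 0.108 to 0.537 in GFP cells. For fusion against GFP it gave -0.051 to 0.075 at 9 h and -0.359 to 0.239 at 6 h, and -0.214 to 0.414 for the interaction.

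Over all alternatives, the 36 single-gene results gave 15 changes of sign. A result counts more than once where several alternatives changed its sign, and the cause was not tested. For fusion against GFP these were CDC6 at 0.003 without number 2 at 6 h, DUT at 0.016 without number 1 at 6 h, and E2F1 at -0.351 to 0.127 with single samples left out (0.120 without array 2 of PR2VR at 6 h). For PR2VR against PRWT they were GINS4 at 0.177 with all probe sets tested and 0.134 as their mean, CCNE1 at 0.110 as that mean, and UHRF1 at 0.006 without number 2 at 9 h, with and without the block. Leaving out single samples gave -0.898 to 0.030 for E2F1, -0.574 to 0.060 for CCNE1 and -0.762 to 0.158 for CHAF1A (0.014 and 0.068 in 2 other cases above 0). Between the hours E2F2 was -0.185 without number 2 at 6 h.

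The 2 arrays per group and the unknown origin of the replicates limit every comparison. Dim probe sets carry the least information, and all 48 genes lay above the filter. Arrays of number 2 at 9 h differ from the others in their 3′ to 5′ ratios and median signal, as given with the quality values, and the reason was not tested.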
